A study of Homo sapiens with 8 samples.

Results

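The replication-dependent and linker histone genes were followed in NCH644, a glioblastoma cell line grown as neurospheres in MG-43 medium, in cells given OTX015, panobinostat or both drugs, and in DMSO controls. OTX015 blocks the bromodomains of BET proteins, which read acetylated histones, and panobinostat blocks histone deacetylases, the enzymes that take acetyl groups off histones. OTX015 cells received 5 µM OTX015, panobinostat cells 5 µM panobinostat, combination cells 5 µM of each drug, and DMSO cells the vehicle, and RNA was taken after 24 h. Each of the 4 groups had 2 arrays of this 1 line, 8 in all. The series text calls them biological duplicates without saying how they were separated, so p-values measure the spread between these samples. Members were the rows whose symbol begins H1-, H2AC, H2BC, H3C or H4C followed by a digit, without symbols that end in P and a number. This gave 62 of 22458 genes, of which 58 are protein-coding (9 H1, 12 H2A, 16 H2B, 11 H3 and 10 H4), 3 are pseudogenes and 1 is an antisense RNA. Of the coding genes, 47 lie on chromosome 6, 7 on chromosome 1, 2 on chromosome 3 and 2 on chromosome 12, by RefSeq.

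Core histones H2A, H2B, H3 and H4 form the spool that DNA winds around, and linker histone H1 binds where DNA enters and leaves it. Most genes of this group are switched on in S phase, when new DNA has to be packaged. Their mRNAs usually end in a stem-loop in place of a poly(A) tail, are bound there by SLBP, and are broken down when DNA synthesis stops. Several are known from differentiated human cells to also give polyadenylated mRNA. The whole-transcript labelling kit named in the labels does not depend on a poly(A) tail for priming. Many copies are nearly identical in coding sequence, so a probe set may also read a sister copy, and the array model is not given in the sources used here.

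Levels are on a log2 scale, where a step of 1 is a doubling within a gene. The values are relative to each array's whole distribution, so a change in the total RNA per cell cannot be seen, and in bulk RNA fewer cells making a transcript and less transcript per cell cannot be told apart. Olfactory receptor genes, 354 in number, gave the background: 95% of their group means lay under 3.03, and a gene was counted above background where both arrays of a group exceeded that level. The deposited array medians were 3.87 to 4, and duplicates correlated at 0.9903 to 0.993 over all genes. All 11 measured neural and glioma markers were above background in DMSO, against 2 of 12 microglial, 3 of 8 endothelial and 3 of 8 fibroblast markers. The mean level over the neural and glioma markers was 8.1 to 8.14 in OTX015, 6.9 to 6.97 in panobinostat, 6.38 to 6.42 in the combination and 8.21 to 8.31 in DMSO. The mean over the microglial markers was 2.72 to 2.79 in OTX015, 3.16 to 3.2 in panobinostat, 3.29 to 3.4 in the combination and 2.49 to 2.68 in DMSO. Whether these shifts have a part in the histone results was not tested.

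More histone genes were above background with drug than without. Of 58 coding genes, 30 were above it in OTX015, 31 in panobinostat, 35 in the combination and 25 in DMSO, and 22 were above it in no group. All 25 genes above background in DMSO stayed above it in every drug group. The 10 genes above it in the combination but not in DMSO were H1-6, H2AC1, H2BC1, H2BC14, H2BC18, H3C2, H3C10, H3C12, H4C2 and H4C4. These 10 span all 5 histone types. The same counts were not made over all genes, so whether the increase is particular to histone genes was not tested. At a stricter level of 3.84, which 99% of those receptor means stay under, fewer members were above background in at least 1 group. There were 30 rather than 39 of all 62 members, and the counts of each group were not repeated at that level.

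The drugs moved histone genes in both directions at once. A gene was called at a Benjamini-Hochberg adjusted p under 0.05 in 1 limma fit over all 8 arrays. OTX015 against DMSO called 22 of 62 members (35.5%), 11 higher and 11 lower, where 16.5% of all genes were called (7.97% higher and 8.49% lower). Panobinostat against DMSO called 36 members (58.1%), 13 higher and 23 lower, against 37.2% of all genes (19.4% higher and 17.9% lower). The combination against DMSO called 37 members (59.7%), 20 higher and 17 lower, against 37.5% (19.2% higher and 18.4% lower). In each of these comparisons the arrays of the 2 groups did not overlap for any called member. Many members that were not called did not overlap either, so this adds no support to the calls. The member medians were -0.07, -0.21 and 0.13 on the log2 scale in OTX015, panobinostat and the combination, beside -0.02, -0.05 and 0.01 over all genes, so the group as a whole had no single direction. Without DMSO replicate 1 or without OTX015 replicate 2, the OTX015 count was 13. The 3 comparisons share the DMSO arrays.

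**Figure D1:**
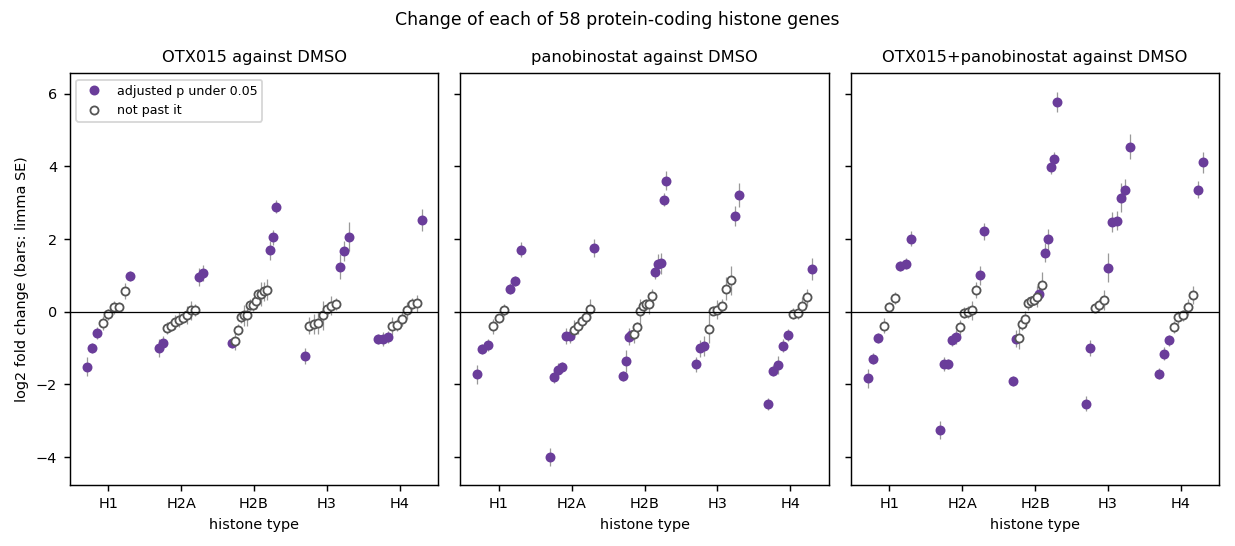
Log2 fold change against DMSO (y axis, bars are the limma standard error) of the 58 coding genes, grouped by histone type along the x axis and sorted within a type, in OTX015, panobinostat and combination cells. Filled points passed adjusted p under 0.05, and every type has filled points above and below 0 in panobinostat and combination cells.

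The coding genes were also set apart by their DMSO level. Of the 25 coding genes above background in DMSO, 4 were called higher and 9 lower in OTX015, 4 higher and 16 lower in panobinostat, and 7 higher and 13 lower in the combination. Of the 33 others, 6 were called higher and 1 lower in OTX015, 8 higher and 5 lower in panobinostat, and 12 higher and 2 lower in the combination. In OTX015, panobinostat and the combination, 52%, 80% and 80% of the 25 were called in either direction. Of the 33 others the shares were 21.2%, 39.4% and 42.4%, beside 16.5%, 37.2% and 37.5% of all genes. All genes were not split by DMSO level, so whether this split is particular to histone genes was not tested. The split uses the same DMSO arrays as the changes, so it is a description with no test. A gene under background also has little room to read lower on an array. In the same arrays the median log2 change of 46 S-phase genes was -0.22 in OTX015, -0.94 in panobinostat and -1.08 in the combination, and their part in the histone falls was not tested.

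The promoters below are shown for 4 genes whose values are given further on, chosen after those values were seen: H2BC21 and H2BC5, which were higher with every treatment, H3C2, which was above background in the combination alone, and H4C5, which was lower with every treatment. Each is the 250 bases before the start site in RefSeq (GRCh38.p14), written 5′ to 3′ on the gene's own strand. Capitals mark matches, on either strand, to the octamer ATTTGCAT known from H2A and H2B promoters, to CCAAT, to the TATA sequence TATAAA, or to AAACACA, known from H1 promoters. H2BC21 lies at chr1:149886683-149886932 on the minus strand, H2BC5 at chr6:26157871-26158120 on the plus strand, H3C2 at chr6:26032100-26032349 on the minus strand and H4C5 at chr6:26204360-26204609 on the plus strand.
H2BC21: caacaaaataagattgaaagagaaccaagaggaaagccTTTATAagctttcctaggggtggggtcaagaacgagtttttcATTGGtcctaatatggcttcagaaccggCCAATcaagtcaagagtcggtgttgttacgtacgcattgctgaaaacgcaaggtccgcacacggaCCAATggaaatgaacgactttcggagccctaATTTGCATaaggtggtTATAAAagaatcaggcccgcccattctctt
H2BC5: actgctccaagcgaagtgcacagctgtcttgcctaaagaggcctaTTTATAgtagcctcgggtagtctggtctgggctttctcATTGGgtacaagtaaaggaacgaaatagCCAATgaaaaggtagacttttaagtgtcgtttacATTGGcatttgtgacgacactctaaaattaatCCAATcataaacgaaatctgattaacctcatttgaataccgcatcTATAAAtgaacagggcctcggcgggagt
H3C2: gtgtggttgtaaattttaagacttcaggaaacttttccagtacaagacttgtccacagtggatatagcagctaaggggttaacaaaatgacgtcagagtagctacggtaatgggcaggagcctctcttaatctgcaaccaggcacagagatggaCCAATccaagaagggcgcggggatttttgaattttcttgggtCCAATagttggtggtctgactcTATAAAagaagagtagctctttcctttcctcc
H4C5: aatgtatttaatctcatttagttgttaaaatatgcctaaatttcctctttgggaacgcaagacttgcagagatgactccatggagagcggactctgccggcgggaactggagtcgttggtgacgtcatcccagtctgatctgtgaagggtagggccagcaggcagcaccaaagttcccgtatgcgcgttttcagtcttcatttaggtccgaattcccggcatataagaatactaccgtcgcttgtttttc

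Promoters were in the RefSeq table for 54 of the 62 members, and for 5 of them in more than 1 window, any of which was counted. The octamer was found in 12 of 16 H2B, 9 of 12 H2A, 1 of 9 H3 and none of the 9 H1 or 8 H4 promoters, beside 2.03% of the promoters of 27305 genes. H2BC21 holds the exact octamer and H2BC5 does not, and both genes rose with every treatment. Only exact matches were counted, and H2BC5 holds a stretch that differs from the octamer at a single base. The H1 sequence was found in 7 of 9 H1 promoters and in none of the core histone promoters, beside 5.95% of all genes. CCAAT was found in all H2A, H2B and H3 promoters, 8 of 9 H1 and 2 of 8 H4 promoters, beside 37% of all genes. TATAAA was found in 4 of 9 H1, 9 of 12 H2A, 11 of 16 H2B, 7 of 9 H3 and 6 of 8 H4 promoters, beside 13% of all genes. Among H2B genes the octamer was found in 4 of the 6 called higher in the combination, 1 of the 2 called lower and 7 of the 8 not called. The matches and the changes come from different data, and no test was made of one against the other.

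The main replication-dependent linker histones were lower with every treatment. H1-4 (H1.4), a somatic linker histone, read 10.76 and 10.86 in OTX015, 10.57 and 10.38 in panobinostat, 10.3 and 9.9 in the combination, and 11.41 and 11.37 in DMSO. All 6 drug arrays lay below both DMSO arrays. Its log2 changes against DMSO were -0.58 ± 0.16 in OTX015 (SE, adjusted p = 0.0413 by limma), -0.91 ± 0.16 in panobinostat (adjusted p = 0.002) and -1.29 ± 0.16 in the combination (adjusted p = 0.000265). The OTX015 call was lost without any 1 DMSO, OTX015 or panobinostat array, with adjusted p of 0.134 and 0.114 without DMSO replicates 1 and 2, 0.178 and 0.124 without OTX015 replicates 1 and 2 and 0.0584 without either panobinostat array. It was also lost with each array centred on its median (0.0563) and with array weights (0.0507). H1-2 (H1.2), another somatic linker histone, read 8.15 and 8.18 in OTX015, 8.24 and 8.06 in panobinostat, 8.5 and 8.39 in the combination, and 9.13 and 9.2 in DMSO. It fell by 1.00 ± 0.13, 1.02 ± 0.13 and 0.72 ± 0.13 on the log2 scale, with adjusted p of 0.00159, 0.000307 and 0.00199, so the combination arrays lay between those of DMSO and those of either drug alone. H1-5 (H1.5) read 3.97 and 3.82 in OTX015, 3.83 and 3.55 in panobinostat, 3.86 and 3.29 in the combination, and 5.74 and 5.07 in DMSO. Its levels were 2.85-fold lower in OTX015, 3.29-fold lower in panobinostat and 3.57-fold lower in the combination than in DMSO, with adjusted p of 0.00524, 0.000817 and 0.000527.

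Other linker histones moved up or stayed near background. H1-10 (H1x), made outside S phase as well, read 7.07 and 6.99 in OTX015, 6.84 and 6.94 in panobinostat, 7.28 and 7.34 in the combination, and 6.18 and 5.9 in DMSO. It was 1.98-fold, 1.8-fold and 2.41-fold higher with OTX015, panobinostat and both drugs than with DMSO, with adjusted p of 0.00232, 0.00135 and 0.000127. H1-6 (H1t), the testis linker histone, read 2 and 2.17 in OTX015, 3.16 and 3.27 in panobinostat, 3.18 and 3.87 in the combination, and 1.58 and 1.44 in DMSO. It was above background only where panobinostat was given, at least 1.14-fold higher in panobinostat and at least 1.41-fold higher in the combination than in DMSO (adjusted p = 0.000304 and 0.000107), since DMSO was under background. H1-1 stayed under background in every group, at a mean of 2.63 in the combination and 1.31 in DMSO, with a log2 change of 1.32 ± 0.15 (adjusted p = 0.00017), while its panobinostat call (log2 change 0.63, adjusted p = 0.0108) was lost without panobinostat replicate 1 (adjusted p = 0.0845). H1-3, also a somatic linker histone, averaged 1.3 in OTX015, 0.98 in panobinostat, 1.31 in the combination and 1.17 in DMSO, all under background. The oocyte linker histone H1-8 averaged 3.6, 3.53 and 3.86 with OTX015, panobinostat and both drugs, and 3.48 with DMSO. The spermatid linker histone H1-7 averaged 1.69, 1.6 and 1.63 with the same treatments and 2 with DMSO. None of these 3 passed the test in any comparison with DMSO.

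**Figure D2:**
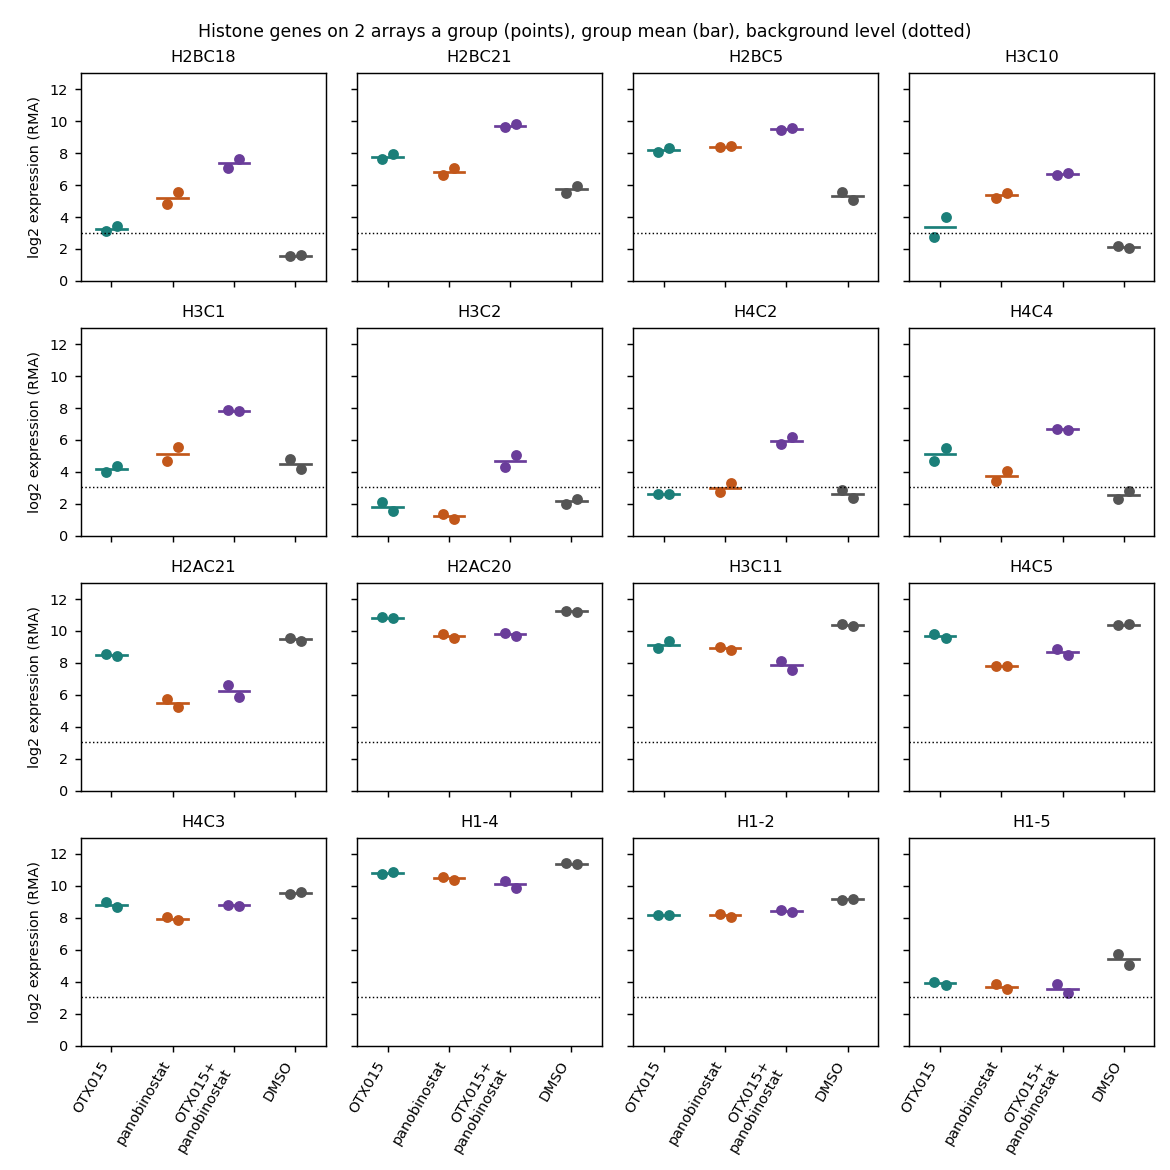
Log2 expression (y axis) of 16 histone genes on the 2 arrays of each group (points) with the group mean (bar) and the background level of 3.03 (dotted line), from OTX015 on the left to DMSO on the right. Combination arrays are highest for the first 8 genes, and DMSO arrays are highest for the last 8.

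Falls outnumbered rises among the called H2A genes in panobinostat and the combination, and H2AC21 had the largest fall of any member in panobinostat and in the combination. Of 12 coding H2A genes, 2 were called higher and 2 lower in OTX015, 1 higher and 6 lower in panobinostat, and 2 higher and 5 lower in the combination. These are 33.3%, 58.3% and 58.3% called in either direction, beside 16.5%, 37.2% and 37.5% of all genes. The called genes were H2AC1 and H2AC7 (higher) and H2AC17 and H2AC21 (lower) in OTX015. In panobinostat they were H2AC1 (higher) and H2AC6, H2AC7, H2AC8, H2AC17, H2AC20 and H2AC21 (lower). In the combination they were H2AC1 and H2AC15 (higher) and H2AC6, H2AC8, H2AC17, H2AC20 and H2AC21 (lower). H2AC21 (NCBI Gene 317772), on chromosome 1, read 8.53 and 8.45 in OTX015, 5.77 and 5.23 in panobinostat, 6.6 and 5.88 in the combination, and 9.58 and 9.39 in DMSO. The panobinostat and combination arrays were far below the rest. H2AC21 was 15.8-fold lower in panobinostat than in DMSO (log2 change -3.99 ± 0.25, adjusted p = 8.87e-06 by limma) and 9.51-fold lower in the combination (adjusted p = 1.94e-05). In OTX015 it was 1.99-fold lower (adjusted p = 0.0298), a call lost without either DMSO array (adjusted p = 0.126 and 0.0764 without replicates 1 and 2) or either OTX015 array (0.111 and 0.14).

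H2AC20, its neighbour on chromosome 1, read 10.87 and 10.8 in OTX015, 9.84 and 9.58 in panobinostat, 9.88 and 9.7 in the combination, and 11.27 and 11.18 in DMSO. It fell by 1.51 ± 0.14 on the log2 scale in panobinostat (adjusted p = 6.42e-05) and by 1.43 ± 0.14 in the combination (adjusted p = 7.6e-05), and its change in OTX015 was -0.39 ± 0.14 (adjusted p = 0.108). H2AC6, known from human cells to also give polyadenylated mRNA, read 9.18 and 9.55 in OTX015, 7.93 and 8.09 in panobinostat, 8.93 and 9.15 in the combination, and 9.89 and 9.73 in DMSO. It was 3.49-fold lower in panobinostat than in DMSO (adjusted p = 5.57e-05) but 1.71-fold lower in the combination (adjusted p = 0.00555), and in OTX015 its log2 change was -0.45 ± 0.16 (adjusted p = 0.112). H2AC17 was lower throughout, by 0.87 ± 0.19, 1.59 ± 0.19 and 1.43 ± 0.19 on the log2 scale in OTX015, panobinostat and the combination (adjusted p = 0.0172, 0.000262 and 0.000443). Leaving out DMSO replicate 1 (0.093), OTX015 replicate 1 (0.0968) or OTX015 replicate 2 (0.0734) ended its OTX015 call. H2AC15 differed from these, with 6.48 and 6.85 in the combination, above 5.51 and 5.89 in OTX015, 4.74 and 5.58 in panobinostat, and 5.63 and 5.68 in DMSO. Its log2 change of 1 ± 0.27 in the combination (adjusted p = 0.0172) was lost without either DMSO array (0.0699 and 0.0577) or without combination replicate 2 (0.102). H2AC7 and H2AC8 stayed under background in every group. The H2AC7 call in OTX015 (log2 change 1.08, adjusted p = 0.0122) was lost without DMSO replicate 2 (0.068) or OTX015 replicate 1 (0.0747) or 2 (0.0622). In panobinostat H2AC7 was called in the other direction (log2 change -0.68, adjusted p = 0.0402). That call was lost without any 1 array except panobinostat replicate 2, with a log2 change of -0.31 without panobinostat replicate 1. It was also lost with quantile normalization (0.0713), array weights (0.0533) or the compared groups alone (0.0923). The H2AC8 call in panobinostat (log2 change -0.67, adjusted p = 0.0208) was lost without DMSO replicate 2 (0.1) or panobinostat replicate 2 (0.14). Its call in the combination (log2 change -0.69, adjusted p = 0.018) was lost without DMSO replicate 2 (0.089) or combination replicate 1 (0.114).

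H2B genes included the largest rises. Of 16 coding H2B genes, 3 were called higher and 1 lower in OTX015, 5 higher and 4 lower in panobinostat, and 6 higher and 2 lower in the combination. These are 25%, 56.2% and 50% called in either direction, beside 16.5%, 37.2% and 37.5% of all genes. The OTX015 calls were H2BC5, H2BC18 and H2BC21 (higher) and H2BC15 (lower). The panobinostat calls were H2BC1, H2BC5, H2BC18, H2BC21 and H2BC26 (higher) and H2BC11, H2BC12, H2BC15 and H2BC17 (lower). In the combination H2BC1, H2BC5, H2BC14, H2BC18, H2BC21 and H2BC26 were called higher and H2BC3 and H2BC15 lower. H2BC18 (NCBI Gene 440689), on chromosome 1, read 3.12 and 3.44 in OTX015, 4.82 and 5.56 in panobinostat, 7.08 and 7.66 in the combination, and 1.55 and 1.61 in DMSO. The 4 groups did not overlap, and DMSO was under background. H2BC18 was at least 20.3-fold higher in the combination than in DMSO (log2 change 5.78 ± 0.27, adjusted p = 1.7e-06 by limma), at least 4.47-fold higher in panobinostat (adjusted p = 1.9e-05) and at least 1.19-fold higher in OTX015 (adjusted p = 0.004). H2BC18 overlaps the gene FCGR1A in RefSeq, which was not analysed here.

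H2BC5 (NCBI Gene 3017), which can give polyadenylated mRNA in differentiated human cells, read 8.09 and 8.3 in OTX015, 8.36 and 8.42 in panobinostat, 9.45 and 9.58 in the combination, and 5.55 and 5.06 in DMSO. It was 8.48-fold higher in panobinostat (adjusted p = 5.92e-06) and 18.5-fold higher in the combination (adjusted p = 1.24e-06) than in DMSO. In RefSeq it overlaps the noncoding RNA H2BC6-AS1 and the pseudogene LARP1P1, which were not analysed here. H2BC21 (NCBI Gene 8349), which also gives polyadenylated mRNA in human cells, read 7.63 and 7.93 in OTX015, 6.6 and 7.05 in panobinostat, 9.62 and 9.81 in the combination, and 5.51 and 5.94 in DMSO. It was 4.15-fold higher in OTX015 (adjusted p = 0.000617) and 15.9-fold higher in the combination (adjusted p = 2.79e-06) than in DMSO, and rose by 1.1 ± 0.21 on the log2 scale in panobinostat (adjusted p = 0.00316). The arrays of the 4 groups were separate for H2BC21. H2BC26, on chromosome 1, rose 2.49-fold in panobinostat (adjusted p = 0.00421) and 3.09-fold in the combination (adjusted p = 0.00129). H2BC12, another gene known for polyadenylated mRNA, was 1.57-fold lower in panobinostat than in DMSO (adjusted p = 0.00644), while its log2 change was 0.49 ± 0.14 in OTX015 (adjusted p = 0.0519) and 0.32 ± 0.14 in the combination (adjusted p = 0.123). In RefSeq it overlaps the coding gene H4C9, which was not analysed here. H2BC15 was lower with every treatment, by 0.86 ± 0.14, 1.76 ± 0.14 and 1.9 ± 0.14 on the log2 scale in OTX015, panobinostat and the combination (adjusted p = 0.00409, 2.44e-05 and 1.32e-05). H2BC3 and H2BC11 were called near or under background. Their log2 changes were -0.74 in the combination (adjusted p = 0.0422) and -0.69 in panobinostat (adjusted p = 0.0429). The replicate block (0.0614 and 0.0589) or the compared groups alone (0.0905 and 0.0704) ended both calls. That of H2BC11 was also lost with quantile normalization (0.0558). Leaving out an array ended these calls for every array but combination replicate 2 and DMSO replicate 2 (H2BC3) and DMSO replicate 2 (H2BC11), with adjusted p up to 0.242 and 0.236, both without DMSO replicate 1. The H2BC14 call in the combination (log2 change 0.5, adjusted p = 0.0313) was lost without DMSO replicate 1 (0.167), either panobinostat array (0.0501) or combination replicate 1 (0.182). It was lost too with quantile normalization (0.0626), a trended robust fit (0.0583) or the compared groups alone (0.0809). Of 5 measured histone genes known from human tissues to also give polyadenylated transcripts, 2 were called higher and 1 lower in OTX015. There were 2 higher and 3 lower in panobinostat, and 2 higher and 2 lower in the combination. The shares called higher and lower in OTX015 were 40% and 20%, beside 7.97% and 8.49% of all genes. In panobinostat they were 40% and 60%, beside 19.4% and 17.9% of all genes. The combination gave 40% each way, beside 19.2% and 18.4%, and no test was made of these shares.

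The testis-specific pair H2BC1 and H2AC1 crossed background with both drugs. Their levels, chosen for naming after their values were seen, were 3.7 and 4.32 for H2BC1 and 3.36 and 3.43 for H2AC1 in the combination, against 1.89 and 2.12 for H2BC1 and 1.19 and 1.17 for H2AC1 in DMSO. H2BC1 was at least 1.97-fold higher and H2AC1 at least 1.29-fold higher (adjusted p = 0.000636 and 0.000112). The OTX015 call of H2AC1 (log2 change 0.96, adjusted p = 0.0266) was under background and was lost without either DMSO array (0.0917 and 0.0981) or OTX015 replicate 1 (0.166). Both genes overlap SLC17A1, which averaged 1.59 in the combination and 1.66 in DMSO, under background.

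Head-to-head H2A and H2B neighbours, whose starts lie within 1000 bases of each other, did not always move together. The RefSeq table gave 8 such pairs among the members. In panobinostat cells both genes passed the test in 3 of them: H2BC1 and H2AC1 were higher, H2BC17 and H2AC17 lower, and H2BC21 higher with H2AC20 lower. H2BC21 was higher with each treatment while H2AC20 was lower in panobinostat and the combination, and the 250-base windows before their starts share 235 bases. The H2BC21 promoter printed above is therefore, read from the other strand, nearly all of that of H2AC20. H2BC15 fell by 1.9 in the combination while H2AC15 rose by 1 on the log2 scale. H2BC17, named after its values were seen, read 5.23 and 6.06 in panobinostat and 6.87 and 7.13 in DMSO, a log2 change of -1.36 ± 0.31 (adjusted p = 0.0085) in the same direction as H2AC17. That call was lost without DMSO replicate 2 (adjusted p = 0.0507) or panobinostat replicate 1 (adjusted p = 0.057).

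**Figure D3:**
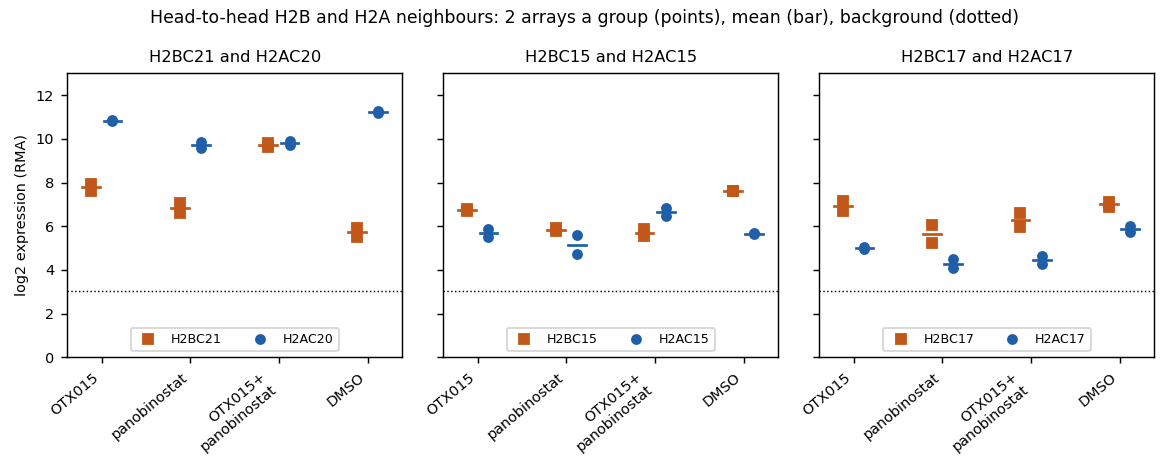
Log2 expression (y axis) of 3 head-to-head pairs in the 4 groups, with H2B genes as squares, H2A genes as circles, group means as bars and the background level of 3.03 as a dotted line. H2BC21 and H2AC20 change in opposite directions in panobinostat and the combination, H2BC15 and H2AC15 do so in the combination, and H2BC17 and H2AC17 are both lower in panobinostat than in DMSO.

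More H3 genes were called higher in the combination than with either drug alone, counting H3C13, which was above background in no group. In OTX015, panobinostat and the combination, 36.4%, 45.5% and 72.7% of the coding H3 genes were called, beside 16.5%, 37.2% and 37.5% of all genes. Of 11 coding H3 genes, 3 were called higher and 1 lower in OTX015, 2 higher and 3 lower in panobinostat, and 6 higher and 2 lower in the combination. The calls were H3C4, H3C10 and H3C12 (higher) and H3C11 (lower) in OTX015, and H3C10 and H3C12 (higher) and H3C2, H3C6 and H3C11 (lower) in panobinostat. In the combination they were H3C1, H3C2, H3C4, H3C10, H3C12 and H3C13 (higher) and H3C6 and H3C11 (lower). H3C10 read 2.74 and 4.02 in OTX015, 5.22 and 5.48 in panobinostat, 6.64 and 6.73 in the combination, and 2.2 and 2.08 in DMSO. It was at least 12.6-fold higher in the combination (adjusted p = 1.58e-05 by limma) and at least 5-fold higher in panobinostat (adjusted p = 0.000126) than in DMSO. The OTX015 arrays of H3C10 were apart, on either side of background, and its OTX015 call (log2 change 1.24 ± 0.34, adjusted p = 0.0409) was lost without any 1 of the 8 arrays except OTX015 replicate 1, at adjusted p of 0.0587 to 0.145, the highest without DMSO replicate 2. It was also lost with array weights (0.0557) and in a fit of OTX015 and DMSO alone (0.083). H3C4 read 7.39 and 8.16 in OTX015, 5.95 and 7.22 in panobinostat, 8.81 and 8.91 in the combination, and 5.46 and 5.98 in DMSO. It was 8.83-fold higher in the combination (adjusted p = 0.000328) and 4.16-fold higher in OTX015 (adjusted p = 0.0102), while the panobinostat arrays overlapped DMSO. The OTX015 call was lost without DMSO replicate 1 (0.0621) or OTX015 replicate 2 (0.0807). H3C4 overlaps H2AC7 in RefSeq, which averaged 2.79, 1.04 and 2.31 with OTX015, panobinostat and both drugs, and 1.72 with DMSO, all under background.

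H3C1 and H3C2 were high in combination cells alone. H3C1 read 4 and 4.37 in OTX015, 4.68 and 5.59 in panobinostat, 7.85 and 7.84 in the combination, and 4.82 and 4.18 in DMSO, so that each single drug overlapped DMSO and the combination stood clear of all. Its combination change was 10.2-fold (adjusted p = 5.14e-05). H3C2 (NCBI Gene 8358) read 2.1 and 1.56 in OTX015, 1.38 and 1.05 in panobinostat, 4.32 and 5.03 in the combination, and 2.02 and 2.31 in DMSO. It crossed background in the combination, at least 3.13-fold higher than in DMSO (adjusted p = 0.000114), and its lower reading in panobinostat (log2 change -0.95, adjusted p = 0.0228) was under background in both groups and was lost without DMSO replicate 2 (0.114) or panobinostat replicate 2 (0.127). H3C12 rose with all treatments, at least 1.9-fold in OTX015, 3.71-fold in panobinostat and 3.3-fold in the combination (adjusted p = 0.00444, 0.00011 and 0.000136). H3C11 went the other way, with 8.95 and 9.35 in OTX015, 9.02 and 8.83 in panobinostat, 8.14 and 7.56 in the combination, and 10.41 and 10.34 in DMSO. H3C11 was 2.34-fold, 2.73-fold and 5.76-fold lower with OTX015, panobinostat and both drugs than with DMSO (adjusted p = 0.00577, 0.000722 and 2.94e-05). H3C6 was 2.02-fold lower in panobinostat and 2-fold lower in the combination (adjusted p = 0.00749 and 0.00775), and both calls were lost without DMSO replicate 1 (0.0507 and 0.0535). H3C13 was not above background in any group, with 2.34 and 3.7 in the combination and 2.03 and 1.59 in DMSO. Its call in the combination (log2 change 1.21 ± 0.4, adjusted p = 0.0422) was lost without any 1 array except combination replicate 1 (0.0532 to 0.217), and with quantile normalization (0.0519), array weights (0.0533), the replicate block (0.0642) or the compared groups alone (0.0816).

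H4 genes code for nearly the same protein but split in direction. In OTX015, panobinostat and the combination, 40%, 60% and 50% of the coding H4 genes were called, beside 16.5%, 37.2% and 37.5% of all genes. Of 10 coding H4 genes, 1 was called higher and 3 lower in OTX015, 1 higher and 5 lower in panobinostat, and 2 higher and 3 lower in the combination. The calls were H4C4 (higher) and H4C3, H4C5 and H4C6 (lower) in OTX015, H4C4 (higher) and H4C1, H4C3, H4C5, H4C13 and H4C16 (lower) in panobinostat, and H4C2 and H4C4 (higher) and H4C3, H4C5 and H4C16 (lower) in the combination. H4C4 read 4.68 and 5.52 in OTX015, 3.44 and 4.03 in panobinostat, 6.7 and 6.64 in the combination, and 2.32 and 2.81 in DMSO. It was at least 12.5-fold higher in the combination than in DMSO (adjusted p = 1.36e-05 by limma), and at least 1.63-fold higher in panobinostat (adjusted p = 0.0144), a call lost without DMSO replicate 1 (0.0893) or panobinostat replicate 2 (0.0992). H4C2 read 2.65 on both OTX015 arrays, 2.72 and 3.3 in panobinostat, 5.77 and 6.16 in the combination, and 2.85 and 2.37 in DMSO. Only its combination arrays were both above background, at least 7.67-fold higher than DMSO (adjusted p = 1.14e-05).

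H4C5 (NCBI Gene 8367) read 9.82 and 9.56 in OTX015, 7.84 and 7.83 in panobinostat, 8.86 and 8.5 in the combination, and 10.35 and 10.42 in DMSO. The order of the groups had no overlap, with DMSO highest and panobinostat lowest. H4C5 was 5.84-fold lower in panobinostat (adjusted p = 8.42e-06) and 3.25-fold lower in the combination (adjusted p = 5.56e-05) than in DMSO. Its OTX015 change of -0.69 ± 0.16 (adjusted p = 0.0206) was lost without either DMSO array (0.063 and 0.0876) or OTX015 replicate 2 (0.133). H4C3 had the same order, with 8.98 and 8.65 in OTX015, 8.03 and 7.87 in panobinostat, 8.83 and 8.72 in the combination, and 9.52 and 9.61 in DMSO, except that OTX015 and the combination overlapped. It was 3.07-fold lower in panobinostat (adjusted p = 5.88e-05) and 1.73-fold lower in the combination (adjusted p = 0.0029). Its OTX015 change of -0.75 ± 0.15 (adjusted p = 0.0108) was lost without DMSO replicate 2 (0.056) or OTX015 replicate 2 (0.0757). H4C1 was 2.75-fold lower in panobinostat than in DMSO (adjusted p = 0.00187), while in OTX015 and in the combination its log2 changes were -0.39 ± 0.25 and 0.46 ± 0.25 (adjusted p = 0.376 and 0.202). H4C16, on chromosome 12, was 1.91-fold lower in panobinostat and 2.22-fold lower in the combination (adjusted p = 0.00392 and 0.0012). H4C6 and H4C13 were under background in every group. The H4C6 call in OTX015 (log2 change -0.75, adjusted p = 0.0225) was lost without either DMSO array (0.063 and 0.0986) or either OTX015 array (0.0668 and 0.133). The H4C13 call in panobinostat (log2 change -0.64, adjusted p = 0.0108) was lost without DMSO replicate 2 (0.0562) or panobinostat replicate 1 (0.0628).

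Adding OTX015 to panobinostat raised histone genes in nearly every call. The combination against panobinostat called 20 of 62 members (32.3%), 19 higher and 1 lower, beside 10.4% of all genes (4.33% higher and 6.1% lower). The lower gene was H3C11, 2.11-fold lower in the combination (adjusted p = 0.0173 by limma), a call lost without panobinostat replicate 1 (0.107) or 2 (0.0644) or combination replicate 2 (0.0725). H2BC21 was 7.39-fold higher in the combination than in panobinostat, H4C4 7.67-fold, H3C1 6.54-fold, H2BC18 4.53-fold, H4C2 at least 7.67-fold and H3C2 at least 3.13-fold, with adjusted p between 0.000693 and 0.00311. H4C1 was 3.79-fold higher (adjusted p = 0.00399). The count depended on single arrays, with 9 calls left without panobinostat replicate 1 and 13 without combination replicate 2. Adding panobinostat to OTX015 went in both directions, with 25 members (40.3%) called in the combination against OTX015, 18 higher and 7 lower, beside 30% of all genes (15.3% higher and 14.7% lower). H2BC18 rose 17.1-fold, H3C1 12.7-fold and H3C10 9.9-fold over OTX015 (adjusted p = 1.54e-05, 5.28e-05 and 0.000151), while H2AC21 was 4.77-fold lower (adjusted p = 0.00024). OTX015 set directly against panobinostat called 24 members, 15 higher and 9 lower, beside 29.3% of all genes (13.3% higher and 16% lower). Without OTX015 replicate 2 this count was 13, and without panobinostat replicate 1 it was 15. H2AC21 was 7.95-fold higher and H4C5 3.62-fold higher in OTX015 than in panobinostat (adjusted p = 6.81e-05 and 7.54e-05), and H2BC18 and H3C10 were 3.77-fold and 3.92-fold lower (adjusted p = 0.000906 and 0.00264).

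The interaction asks whether the combination change differs from the sum of the 2 single-drug changes on the log2 scale. It was called for 15 members (24.2%), 13 above the sum and 2 below it, beside 13.7% of all genes (6.32% above and 7.42% below), and for 9 without OTX015 replicate 1. H3C2 was above the sum by 3.79 ± 0.38 (adjusted p = 0.00128 by limma), H3C1 by 3.02 ± 0.44 (adjusted p = 0.00414), H4C2 by 2.92 ± 0.33 (adjusted p = 0.00189) and H4C1 by 2.31 ± 0.36 (adjusted p = 0.0052). H3C2 and H4C2 were above background in the combination alone. Their single-drug changes were read near or under background, so the sizes of these interactions are uncertain. H3C12, given below, was not above background in DMSO, so the size of its interaction is uncertain too. H2BC5 was below the sum, at -1.77 ± 0.25 (adjusted p = 0.00394): each drug raised it, and both together raised it by less than the sum. The other gene below the sum was H3C12, at -1.84 ± 0.39 (adjusted p = 0.0169), a call lost without DMSO replicate 2 (0.0549), OTX015 replicate 1 (0.0533) or 2 (0.0649), or combination replicate 1 (0.0574). H2BC18, with 0.49 ± 0.38 (adjusted p = 0.463), and H3C10, with 0.1 ± 0.48 (adjusted p = 0.924), did not pass, and 2 standard errors on these estimates span changes above and below the sum.

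**Figure D4:**
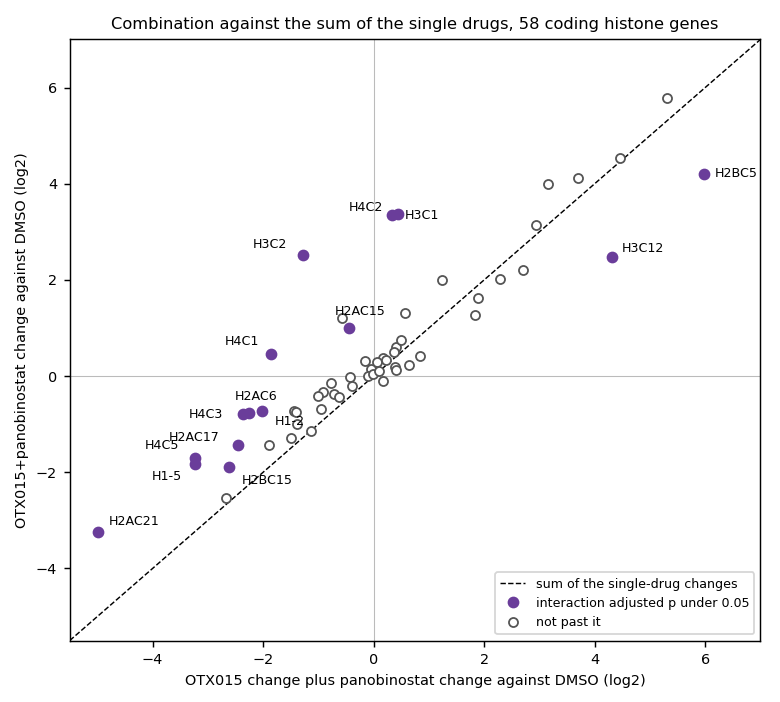
Combination change against DMSO (y axis, log2) set against the sum of the OTX015 and panobinostat changes (x axis, log2) for the 58 coding genes, with the line of equality dashed. Filled points are the 15 genes with interaction adjusted p under 0.05, of which 13 lie above the line and H2BC5 and H3C12 below it.

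Of the members that code for no protein, H2BC20P had the highest signal over background. It overlaps the coding gene H4C15 in RefSeq, which was not analysed here, so which of them the probe set reads cannot be told. H2BC20P, a pseudogene on chromosome 1 named after its values were seen, read 8.26 and 8.75 in OTX015, 7.76 and 8.27 in panobinostat, 9.1 and 9.39 in the combination, and 6.86 and 7.15 in DMSO. It was 4.71-fold higher in the combination (adjusted p = 9.12e-05 by limma), 2.82-fold higher in OTX015 (adjusted p = 0.00341) and 2.01-fold higher in panobinostat (adjusted p = 0.00811), the last lost without DMSO replicate 1 (0.0526) or panobinostat replicate 2 (0.0617). The pseudogene H1-9P overlaps SGCA in RefSeq, which averaged 3.31 in OTX015, 3.07 in panobinostat, 3.5 in the combination and 3.49 in DMSO. H1-9P was under background with OTX015, panobinostat and both drugs, with means of 2.79, 2.51 and 2.66, against 3.61 in DMSO. Its log2 changes were -0.82, -1.1 and -0.95 (adjusted p = 0.0308, 0.00328 and 0.00705). The OTX015 call was lost without DMSO replicate 1 (0.0989) or 2 (0.108) or OTX015 replicate 1 (0.18), and the combination call without combination replicate 2 (0.0516). H2AC2P, at means of 2.33 in OTX015, 2.09 in panobinostat, 2.37 in the combination and 2.33 in DMSO, was under background throughout. The antisense RNA H1-10-AS1, which overlaps H1-10, went the other way from it, with a log2 change of -0.65 in panobinostat and -0.71 in the combination (adjusted p = 0.0195 and 0.0129). The panobinostat call was lost in a fit of those groups alone (0.0539). Both were lost without DMSO replicate 2 (0.0884 and 0.0638), the first also without panobinostat replicate 1 (0.129) and the second without combination replicate 2 (0.0621).

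The genes that switch on, process and tail S-phase histone mRNA include activators, cleavage factors and enzymes of histone mRNA decay. Of 26 measured, 2 were called higher and 0 lower in OTX015, 5 higher and 7 lower in panobinostat, and 4 higher and 8 lower in the combination, with medians of 0.02, -0.3 and -0.21. The shares called higher and lower were 7.69% and 0% in OTX015 (all genes 7.97% and 8.49%), 19.2% and 26.9% in panobinostat (all genes 19.4% and 17.9%), and 15.4% and 30.8% in the combination (all genes 19.2% and 18.4%). No test was made of these shares. NPAT, the coactivator at histone gene clusters, read 7.32 and 7.36 in OTX015, 7.79 and 7.76 in panobinostat, 7.68 and 7.72 in the combination, and 7.11 and 6.88 in DMSO, and passed the test in panobinostat (log2 change 0.78 ± 0.13, adjusted p = 0.00142 by limma) and the combination (0.71 ± 0.13, adjusted p = 0.00235). SLBP, which binds the stem-loop, rose by 0.71 ± 0.13 in OTX015 (adjusted p = 0.00843), a call lost without OTX015 replicate 1 (0.0635), and its changes of 0.29 in panobinostat and 0.19 in the combination did not pass (adjusted p = 0.122 and 0.331). CASP8AP2 (FLASH), a processing factor, had changes of 0.26, 0.14 and 0.28, none past the test. TUT7, which adds uridines to histone mRNA on its way to decay, rose by 1.7 ± 0.16 in panobinostat and 1.71 ± 0.16 in the combination (adjusted p = 6.64e-05 and 5.68e-05). Its OTX015 call (0.56, adjusted p = 0.0472) was lost without any 1 of the 8 arrays, at adjusted p of 0.0551 to 0.227. CPSF2, of the cleavage complex, fell by 0.83 ± 0.14 and 1.31 ± 0.14 in the same groups (adjusted p = 0.00162 and 0.000116), and E2F1, a driver of S-phase entry, by 1.48 ± 0.21 and 1.58 ± 0.21 (adjusted p = 0.000538 and 0.000352).

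More genes of DNA synthesis were called lower where panobinostat was given than with OTX015 alone. Of 46 measured S-phase genes, 2 were called higher and 13 lower in OTX015, 1 higher and 36 lower in panobinostat, and 1 higher and 35 lower in the combination, with medians of -0.22, -0.94 and -1.08. The shares called lower were 28.3%, 78.3% and 76.1%, beside 8.49%, 17.9% and 18.4% of all genes. The shares called higher were 4.35%, 2.17% and 2.17%, beside 7.97%, 19.4% and 19.2% of all genes. TYMS, which makes thymidylate, read 9.33 and 9.34 in OTX015, 6 and 6.23 in panobinostat, 5.51 and 5.63 in the combination, and 9.3 and 9.35 in DMSO, and fell by 3.22 ± 0.13 in panobinostat and 3.76 ± 0.13 in the combination (adjusted p = 1.71e-06 and 8.31e-07). Histone chaperones gave more falls than rises, with 2 of 25 called higher and 8 lower in OTX015, 2 higher and 15 lower in panobinostat, and 4 higher and 13 lower in the combination. Set beside the same shares of all genes, 8%, 8% and 16% of them were called higher and 32%, 60% and 52% lower. CHAF1A, the large subunit of the assembly factor that loads new histones behind the fork, fell by 0.71 ± 0.12, 1.68 ± 0.12 and 1.75 ± 0.12 (adjusted p = 0.00444, 1.35e-05 and 8.32e-06). HJURP, the chaperone of the centromeric H3, fell by 2.53 ± 0.17 in panobinostat and 2.69 ± 0.17 in the combination (adjusted p = 1.14e-05 and 6.34e-06), and that H3 itself, CENPA, by 2.07 ± 0.21 and 2.32 ± 0.21 (adjusted p = 8.84e-05 and 4.09e-05). UBN1, a subunit of the complex that deposits H3.3 outside S phase, rose by 0.76 ± 0.13, 0.96 ± 0.13 and 1.51 ± 0.13 (adjusted p = 0.00515, 0.000446 and 3.19e-05).

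Replication-independent core histone variants were called at shares near those of all genes where panobinostat was given. Of 14 measured, 2 were called higher and 0 lower in OTX015, 3 higher and 4 lower in panobinostat, and 3 higher and 3 lower in the combination. These are 21.4% higher and 28.6% lower in panobinostat and 21.4% each way in the combination, beside 19.4% and 17.9%, and 19.2% and 18.4%, of all genes. H2AZ1, an H2A variant found at promoters, read 10.11 and 10.06 in OTX015, 8.06 and 8.07 in panobinostat, 8.49 and 8.44 in the combination, and 10.16 and 10.04 in DMSO. It fell by 2.03 ± 0.12 in panobinostat and by 1.63 ± 0.12 in the combination (adjusted p = 6.67e-06 and 1.42e-05). H2AZ2, its sister gene, rose by 1.26 ± 0.18 in panobinostat (adjusted p = 0.000552), where H2AZ1 fell. H3-3B, which encodes H3.3, rose by 1.15 ± 0.13 in the combination (adjusted p = 0.000124). The 2 OTX015 calls were H2AZ2 (0.78, adjusted p = 0.0183) and H3-3B (0.5, adjusted p = 0.0274). H2AZ2 was lost there when DMSO replicate 1, OTX015 replicate 1 or OTX015 replicate 2 was left out (up to 0.11), and H3-3B without any 1 DMSO or OTX015 array (up to 0.116).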

How the data were processed

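Per the submitters' processing notes, the deposited log2 values were processed by the authors with RMA (affy 1.36.1; R 2.15.1). Which array and probe set definition they used is not given in the sources used here. RMA makes array distributions alike. Of 23786 probe sets, 22458 had exactly 1 gene symbol in the platform annotation, each gene with 1 probe set, and 1328 had none. All 62 members matched RefSeq by gene ID. No column was left unassigned (0) and 0 pairs of arrays were identical. Arrays were grouped by sample title, and precision is limited by 2 arrays a group.

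All 8 arrays entered 1 fit in limma 3.58.1 (R 4.3.3; lmFit, eBayes, two-sided) with 4 residual and 4.41 prior degrees of freedom, no covariate and no filter, for 7 comparisons. P-values were adjusted over the 22458 genes within each. Folds against a group averaging under background are bounds against that level. Named genes were all linker members, the 5 largest called rises and falls of core members above background in each comparison with DMSO and of the combination against each drug, 3 each way for the interaction, the 4 core members of highest mean level per histone type, and from each other list up to 4 called members plus NPAT, SLBP and CASP8AP2. Exceptions are marked. The members and lists were chosen with earlier results of these data known.

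Simulated arrays were built on the DMSO means and the spread within the 4 groups, with 200 of 22458 genes changed in the OTX015 arrays. There the fit recovered 55.7% of log2 changes of 1 and 94.7% of 2, with 4.2% of calls false. Far fewer genes were changed than were called in any real comparison, so these rates need not hold for the data. Alternatives were scaling (median centring or quantile normalization), the genes tested (without the dimmest 25%, or every probe set), the model (a trended robust fit, weights for arrays, a block for replicate number, the compared groups alone), each array left out, and the 99th percentile as background. Counts over coding members alone or members above background alone were chosen after seeing the data.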

Additional observations from a re-analysis of the deposited data

Results flagged for a closer look

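For 15 members the combination change differed from the sum of the single-drug changes by the interaction test (limma, adjusted p under 0.05), so the effect of one drug differed with the other drug present. Above the sum on the log2 scale were H3C2 by 3.79, H3C1 by 3.02, H4C2 by 2.92, H4C1 by 2.31, H2AC21 by 1.73, H4C3 by 1.58, H4C5 by 1.53, H2AC6 by 1.47, H2AC15 by 1.46, H1-5 by 1.39, H1-2 by 1.3, H2AC17 by 1.04 and H2BC15 by 0.73. Below it were H3C12 at -1.84 and H2BC5 at -1.77. For H2AC15, H3C1, H3C2 and H4C2 neither drug alone gave a called rise, and both together did. The H2AC15 rise was lost without either DMSO array or without combination replicate 2. H3C2 and H4C2 were above background in the combination alone, so the sizes of their interactions are uncertain. H3C12 was not above background in DMSO, which leaves the size of its interaction uncertain too. For H1-2, H1-5, H2AC17, H2AC21, H2BC15, H4C3 and H4C5 each drug alone gave a fall, and both together gave a smaller fall than the sum. H1-5 was already near background with either drug alone, which leaves little room to read lower, and the part of this was not tested. Of the 15, 9 were called in all settings tried, and 6 were not. Leaving out single arrays ended the call of H1-5 (adjusted p 0.0704 to 0.121, any array but DMSO replicate 2 and combination replicate 2), H2AC15 (0.0575 to 0.125, any but panobinostat replicate 2) and H2BC15 (0.0849 to 0.13, any but combination replicate 2). It also ended that of H2AC17 (0.0976 to 0.128, any but DMSO replicate 2, panobinostat replicate 2 and combination replicate 2), H2AC21 (0.0509 to 0.062, OTX015 replicates 1 and 2 and panobinostat replicate 2) and H3C12 (0.0533 to 0.0649, DMSO replicate 2, both OTX015 arrays and combination replicate 1). H2AC17 was lost with the replicate block as well (0.055), and H2BC15 with median centring (0.0513). No group had the 4 arrays needed to look for single outlying values.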

How the results depend on the processing

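No called change of a named member reversed its direction under any setting. Of 245 pairs of a named member and a comparison, 29 changed sign in at least 1 setting, none of them called, such as the H3C10 interaction, 0.1 over all arrays and -0.54 without OTX015 replicate 1. With each array left out in turn, the members called ranged from 13 to 22 in OTX015 against DMSO (13 without DMSO replicate 1 or OTX015 replicate 2), 31 to 34 in panobinostat against DMSO, 33 to 35 in the combination against DMSO, 19 to 25 in the combination against OTX015, 9 to 20 in the combination against panobinostat (9 without panobinostat replicate 1, 13 without combination replicate 2), 13 to 25 in OTX015 against panobinostat (13 without OTX015 replicate 2, 15 without panobinostat replicate 1) and 9 to 15 for the interaction (9 without OTX015 replicate 1). Leaving out an array also leaves fewer samples in the fit, and the lone array of its group is then assumed to vary like the others. All other settings kept every count of called members within 1.5 times of that reported. The series text states no pairing of samples by replicate number. Differences between replicates 1 and 2 correlated between groups at 0.0467 to 0.118, which cannot show whether the samples were paired. With the replicate number as a block, the counts were 22, 36, 36, 25, 20, 26 and 15 in the order of the comparisons above. Median centring turned the median of all genes to 0.02 in OTX015 against DMSO and to -0.05 in the combination against DMSO. It moved that median by -0.11 in the combination against OTX015 and by 0.13 in OTX015 against panobinostat. Of 146 calls over those pairs, 101 held in every setting and 45 were lost in at least 1, and 28 were gained in at least 1. With 2 arrays a group, changes of 1 on the log2 scale can be missed, and levels near 3.03 cannot be ordered.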
